A study of Mus musculus with 4 samples.

Results

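The regions described here are the peaks of acetylated histone H3 lysine 27 (H3K27ac) that stood alone deep inside genes. A peak was taken if it shared no base with a Trim33 peak or a CTCF peak, and if its summit lay inside a protein-coding RefSeq gene and more than 5 kb from every protein-coding gene end. There were 7891 such peaks among the 30047 H3K27ac peaks, a share of 26.3% (95% exact binomial interval 25.8 to 26.8). They were chosen by the position and overlap of the peaks, so their number and their place are descriptions and carry no test. Chromatin immunoprecipitation sequencing was done on day 6 embryoid bodies, clusters of differentiating mouse embryonic stem cells, with 1 library each for Trim33, CTCF, H3K27ac and input DNA. All 4 libraries came from stem cells of the genotype Trim33FF:UbcCreERT2, that is with floxed Trim33 alleles and a tamoxifen-inducible Cre under the ubiquitin C promoter, and the labels name no inducing treatment. The cells were of passages 8 to 12 and of the strain labelled Outbred - B6:129Sv, and the chromatin was pooled from 20 dishes. With 1 library per antibody, no value has a replicate check, and the intervals given cover counting error only.

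H3K27ac is laid down by the acetyltransferases p300 and CBP and marks active promoters and active enhancers. Inside genes it is found at enhancers that act on the host gene or on a neighbour, and at alternative promoters from which shorter transcripts start. CTCF binds insulators and loop anchors, and Trim33, a TRIM protein, binds chromatin and acts with Smad proteins. In bulk chromatin, acetylation in fewer cells and weaker acetylation in each cell cannot be told apart.

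Several of the highest of these peaks covered a transcript start that RefSeq annotates inside the gene. The annotation was taken as given, and use of these starts as promoters in these cells was not tested. The 250 bases before the nearest such start are shown for the first 4 of the highest peaks that had one within 1 kb. Each CpG dinucleotide is in capitals, a marking chosen after the motif letters named below were found absent from these windows. The sequences are RefSeq's, build GRCm38.p6 (the assembly of mm10), 5′ to 3′ on the strand of the gene. The window of Zmynd8 is chr2:165884839-165885088 (minus strand), that of Dennd6a chr14:26579300-26579549 (plus strand), that of Nfyc chr4:120825210-120825459 (minus strand) and that of Gabpb1 chr2:126675353-126675602 (minus strand). 
Zmynd8: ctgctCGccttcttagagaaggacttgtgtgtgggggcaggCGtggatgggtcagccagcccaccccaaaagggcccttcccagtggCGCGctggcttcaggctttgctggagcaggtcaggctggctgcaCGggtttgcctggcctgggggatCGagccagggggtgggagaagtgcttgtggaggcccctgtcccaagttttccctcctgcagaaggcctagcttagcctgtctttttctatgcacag 
Dennd6a: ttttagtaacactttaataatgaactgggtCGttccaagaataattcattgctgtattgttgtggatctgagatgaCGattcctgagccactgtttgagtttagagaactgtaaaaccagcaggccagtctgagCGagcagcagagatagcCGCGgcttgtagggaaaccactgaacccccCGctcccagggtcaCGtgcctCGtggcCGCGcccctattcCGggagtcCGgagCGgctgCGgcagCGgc 
Nfyc: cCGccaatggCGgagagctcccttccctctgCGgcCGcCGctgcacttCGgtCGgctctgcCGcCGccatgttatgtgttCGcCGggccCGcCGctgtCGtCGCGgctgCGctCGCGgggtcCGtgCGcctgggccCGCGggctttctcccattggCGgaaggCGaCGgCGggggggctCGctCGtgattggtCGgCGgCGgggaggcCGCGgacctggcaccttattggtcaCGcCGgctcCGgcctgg 
Gabpb1: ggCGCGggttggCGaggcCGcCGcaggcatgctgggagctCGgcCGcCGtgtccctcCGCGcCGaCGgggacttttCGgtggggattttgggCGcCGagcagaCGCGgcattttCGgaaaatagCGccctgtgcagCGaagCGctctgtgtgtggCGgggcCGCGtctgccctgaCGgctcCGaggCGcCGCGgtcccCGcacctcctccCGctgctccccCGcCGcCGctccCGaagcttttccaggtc 
The Zmynd8 window held 6 CpG dinucleotides at a G+C content of 62.0%, and the Dennd6a window 15 at 54.0%. The Nfyc window held 37 at 74.4%, and the Gabpb1 window 35 at 72.4%. None of the 4 windows held the SP/KLF letters GGGCGG, the ETS letters CCGGAAG or the E-box letters CAGCTG on either strand.

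One peak covered a whole microRNA cluster. It lay in Larp7, which encodes a protein that binds 7SK RNA, at chr3:127545032-127546483, and held the hairpins of Mir302b, Mir302c, Mir302a, Mir302d and Mir367. These microRNAs are abundant in pluripotent stem cells. Some of their mature sequences are shown with the seed (bases 2 to 8) in capitals. They come from RefSeq (GRCm38.p6, plus strand) and run from chr3:127545275-127545297 for miR-302b-3p to chr3:127545779-127545800 for miR-367-3p. 
mmu-miR-302b-3p: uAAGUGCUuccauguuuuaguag 
mmu-miR-302d-3p: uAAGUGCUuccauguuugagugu 
mmu-miR-302c-3p: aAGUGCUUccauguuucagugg 
mmu-miR-302a-5p: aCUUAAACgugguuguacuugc 
mmu-miR-367-3p: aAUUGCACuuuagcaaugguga 
The 3p products of Mir302b and Mir302d shared the seed AAGUGCU, and that of Mir302c had AGUGCUU. The 5p product of Mir302a had CUUAAAC, where the 5p products of Mir302b, Mir302c and Mir302d had CUUUAAC. The 3p product of Mir302a is not shown, so its seed is not compared with the other 3p seeds. The product miR-367-3p had the unrelated seed AUUGCAC. The peak had a fold of 21.8, a −log10 q of 82.4 and a width of 1452 bp. Its summit lay 1 bp from the middle of the Mir367 hairpin, and the other 4 hairpins lay on 1 side of the summit, inside the peak. Larp7 is transcribed from the minus strand, opposite to the hairpins, and the nearest annotated start was that of the long noncoding RNA Gm51018 on the plus strand, 682 bp before the summit. Larp7 held 4 of these peaks in all, with folds of 13.1, 14.0, 21.8 and 7.13 in order of coordinate. Larp7 and Gm51018 were named after their values were seen. Across all hosts, 11 of the 7891 peaks had a hairpin within 1 kb, with 13 hairpins among them, of 1005 hairpins in the RefSeq table and 658 inside protein-coding genes.

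Peaks alone deep inside genes were low and narrow beside those at gene ends. The fold given is the authors' value, the ratio of tags at the summit to the local background. Its lowest value was 2.38, its quartiles were 5.01, 6.01 and 7.35, and its highest was 33.8. The median was 7.68 for the 827 peaks deep inside genes with Trim33 or CTCF, 7.23 for the 11504 peaks alone within 5 kb of a gene end, and 6.21 for the 5046 peaks alone between genes. A fold of 10 or more was reached by 8.36% of the peaks alone deep inside genes (660), against 31.0%, 28.4% and 8.82% in those 3 classes. The curves of peaks alone deep inside genes and alone between genes lay close together, and both stood to the left of the other pair. The median width was 372 bp, from 200 to 8110 bp, against 613, 466 and 365 bp in the same order. A single shared base took a peak out of the alone class, so the rule itself removed wide peaks more readily. The contrast with the class that has Trim33 or CTCF is therefore partly set by the rule, and its share in the folds was not tested. A −log10 q of at least 10 was reached by 69.8% of the peaks alone deep inside genes. Across the 5 kb threshold the values were alike. The 373 peaks just inside it, over 5 to 6 kb from an end, had a median fold of 6.20, and the 430 just outside it, at 4 to 5 kb inside a gene, had 5.89.

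**Figure D1:**
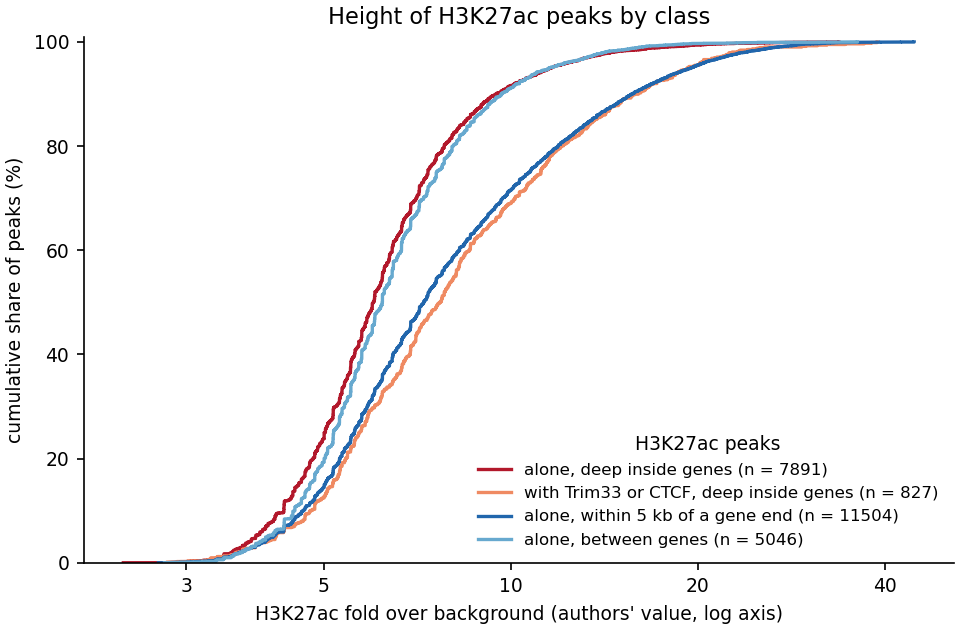
Cumulative share of H3K27ac peaks (y axis, %) against fold over background (x axis, log scale) in 4 classes, 1 library. The curve of peaks alone deep inside genes (median 6.01) runs close to that of peaks alone between genes (6.21), left of the peaks with Trim33 or CTCF (7.68) and of the peaks alone near gene ends (7.23).

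Most H3K27ac peaks deep inside genes stood alone, counted as they were called. When peaks within 1 kb were joined, 3674 regions met the rule, and joined regions that touched a CTCF or Trim33 peak no longer counted. Of the 8718 H3K27ac peaks with a summit there, 7891 (90.5%, 89.9 to 91.1) overlapped no peak of the other antibodies, 610 overlapped CTCF, 278 overlapped Trim33 and 61 overlapped both. Of the peaks between genes 87.7% stood alone, and of those within 5 kb of a gene end 73.9%. A CTCF summit lay within 10 kb of 41.2% of the peaks alone deep inside genes (3250, interval 40.1 to 42.3), at a median distance of 13.3 kb, against 56.5% of those alone near gene ends and 40.2% of those alone between genes. A Trim33 summit lay within 10 kb of 15.2% (1196), against 15.2% and 24.5%. The authors' deposited table gives 29995044 tags for H3K27ac and 13643929 for Trim33, and 13.02% and 0.72% of reads inside peaks. A peak counted here as free of Trim33 may hold Trim33 below detection at that depth.

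The 12 highest peaks lay in genes of many kinds. The highest, with a fold of 33.8, was in Zmynd8 at chr2:165883825-165890124, a gene for a chromatin reader with a bromodomain. Next came a peak of 32.3 in Ddc, the gene for the DOPA decarboxylase of amine synthesis, and one of 32.1 in Dennd6a, which encodes an exchange factor of Rab proteins. Ywhaz, a 14-3-3 protein gene, had 30.1, and Nfyc, for a subunit of the CCAAT-binding factor NF-Y, had 29.6. Gabpb1, for the beta subunit of the ETS-family factor GABP, had 28.6, and Hexim2, for an inhibitor of the elongation kinase P-TEFb, had 28.2. Tnrc6a, a gene of microRNA silencing, had 27.7. Fam13b had 27.2, C77080 27.1, Bicral, for a subunit of a SWI/SNF complex, 26.6, and Smim10l1 26.4. For 9 of the 12, no H3K27ac summit lay within 1 kb of either outer end of the host gene. The same held for 55 of the 100 highest and for 40.5% of all 7891.

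The widest peaks were in other genes, except for Zmynd8. The rule placed summits and not whole peaks deep inside genes, so a wide peak could reach a gene end. A peak in Gnai2, which encodes an inhibitory G protein subunit, was 8110 bp wide with a fold of 17.3. Its summit lay 7.47 kb from the nearest coding gene end, but the peak ran to base 107635367, close to the Gnai2 end at 107635391. One in Shb, an adaptor protein gene, was 8061 bp wide with a fold of 15.3. Kdm6b, which encodes a demethylase of histone H3 lysine 27, had 1 of 7268 bp and fold 11.8, Zmynd8 a second broad peak of 6800 bp and fold 21.2, and Myh9, the nonmuscle myosin IIA heavy chain gene, 1 of 6311 bp and fold 13.3.

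Annotated starts were frequent at the high end of the range and rare at the low end. The start table covers all chromosomes with such peaks but 18, which leaves 7658 peaks, and it holds a start for 1700 of the 2192 host genes, so the counts are of listed starts. A start lay within 1 kb of the summit for 671 peaks (8.76%, interval 8.14 to 9.42), of a host gene for 529 and of another gene only for 142. When the peaks were cut into 10 groups of equal size by fold, the share was 24.4% in the highest group and 11.5% in the group below it. It was 5.35% in the lowest group and 4.05% in the group above that. Of the 100 highest peaks, all with a fold of at least 16.5, 53 had such a start. The median fold was 7.13 with a start and 5.91 without. The start lay inside the peak for 230 of the 671, and the summit was downstream of it for 432 and upstream for 239. In comparison, 20.1% of peaks deep inside genes with Trim33 or CTCF, 55.6% of peaks alone near gene ends and 7.14% of those alone between genes had a start within 1 kb. Since height was a criterion for listing a peak at all, these shares describe the listed peaks.

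**Figure D2:**
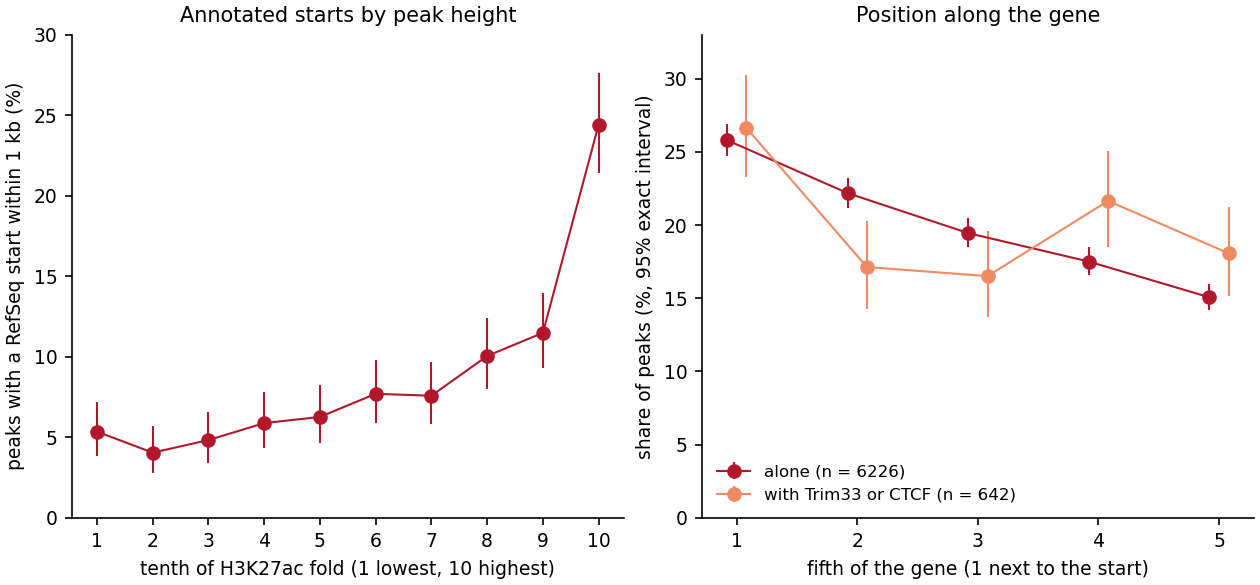
Left, share of peaks alone deep inside genes with a RefSeq start within 1 kb of the summit (y axis, %) by fold in 10 groups of equal size (x axis), reaching 24.4% in the highest. Right, share of peaks (y axis, %) by position in the host gene, cut into 5 equal parts from its start (x axis), for peaks alone (25.8% in part 1, 15.1% in part 5) and with Trim33 or CTCF; bars are 95% exact intervals.

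The starts beside these peaks differed in sequence from other acetylated starts. Over the 300-base windows of RefSeq (250 before to 50 after a start), the 508 starts nearest to a peak alone deep inside a gene had a median G+C content of 59.0%. The 9624 other starts with H3K27ac (a summit no more than 1 kb away) had 62.0%, and the 22412 starts without one had 49.3%. An observed to expected CpG ratio of at least 0.6 was found in 47.8% of the first windows (43.4 to 52.3), 78.7% of the second and 17.5% of the third. The SP/KLF letters GGGCGG, searched on both strands like all motifs here, were in 52.6%, 66.8% and 22.2% of windows, against 35.9% of all windows. The ETS letters CCGGAAG were in 10.4% of the first windows, 20.5% of the second and 873 of the third, against 8.91% of all. The E-box letters CAGCTG, a palindrome, ran the other way, in 22.6%, 13.6% and 17.4%, against 16.4% of all, and the ZIC letters CAGCAGG were in 14.2%, 9.54% and 10.9%, against 10.5% of all. E-box and ZIC did not stand apart in this. Of the 14 motifs searched, the rest were also more frequent in the first windows than in the second, except CTCF (14.2% and 17.1%). The AP-1 letters, for example, were in 7.28% and 4.02%, and the TEAD letters were nearly alike, in 12.0% and 11.7%. The SP/KLF and ETS letters each hold a CpG, and the part of base composition in these shares was not tested. A match shows only that the letters are present.

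The peaks were spread over few genes. Of 21887 protein-coding genes, 13809 were long enough to have sequence over 5 kb from every coding gene end (their interior), and 2192 of these held at least 1 peak, which is 15.9% of them. Exactly 1 peak was found in 831 genes and 2 to 4 in 821, while 540 genes (3.91%) held 5 or more, 175 held 10 or more and 33 held 20 or more. The 540 genes took 62.8% of the pairs of peak and host gene. Genes with a peak were long, with a median of 81.6 kb against 33.7 kb for all those with an interior, and of 5 groups by length of interior the shortest had a peak in 2.57% of genes and the longest in 35.7%. Densities per Mb of interior count these pairs, here and in the gene lists. A peak in overlapping genes counts once for each, which held for 53 peaks, 1 of them in 24 genes. The density was 9.41 over all genes. It was 12.8, 13.9, 13.2 and 14.8 in the first 4 groups and 7.52 in the group with the longest interior.

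Msi2, which encodes an RNA-binding protein of the Musashi family, held 50 peaks with folds of 3.62 to 11.5 over 379 kb of gene, and Etl4 held 49 over 900.3 kb, at a lower density of 5.50 per 100 kb of interior. Tead1, a DNA-binding factor of the Hippo pathway, held 42, and Usp29, an imprinted deubiquitinase gene, 35. Shb had 34, and Tcf7l1, the transcriptional repressor of the Wnt pathway, 33 with folds of 3.27 to 10.3. Maml3, a coactivator of Notch, had 32, Rbpms, an RNA-binding protein gene, 30, and Trak1, which links mitochondria to kinesin, 29. Pmepa1, a feedback inhibitor of TGF-beta signalling, and Ptpn14, a phosphatase that restrains Yap1, had 28 each. Unc5b, a netrin receptor gene, had 27 with folds of 2.85 to 26.2. When peaks within 1 kb of each other were joined, these 12 genes held from 1 (Pmepa1) to 25 (Msi2). A joined region no longer counted where it touched a CTCF or Trim33 peak or its summit lay near a gene end. At a −log10 q of at least 10, Msi2 had 33, below Etl4 with 38 and Tead1 with 34, while Shb had 21, Tcf7l1 20, Ptpn14 18 and Maml3 15. With the ends of noncoding genes also avoided, Ptpn14 had 15, and Msi2 had 44 against 49 in Etl4. Without peaks near a RefSeq start, Msi2 had 47 and Etl4 49, so the order of the first genes depended on the setting.

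**Figure D3:**
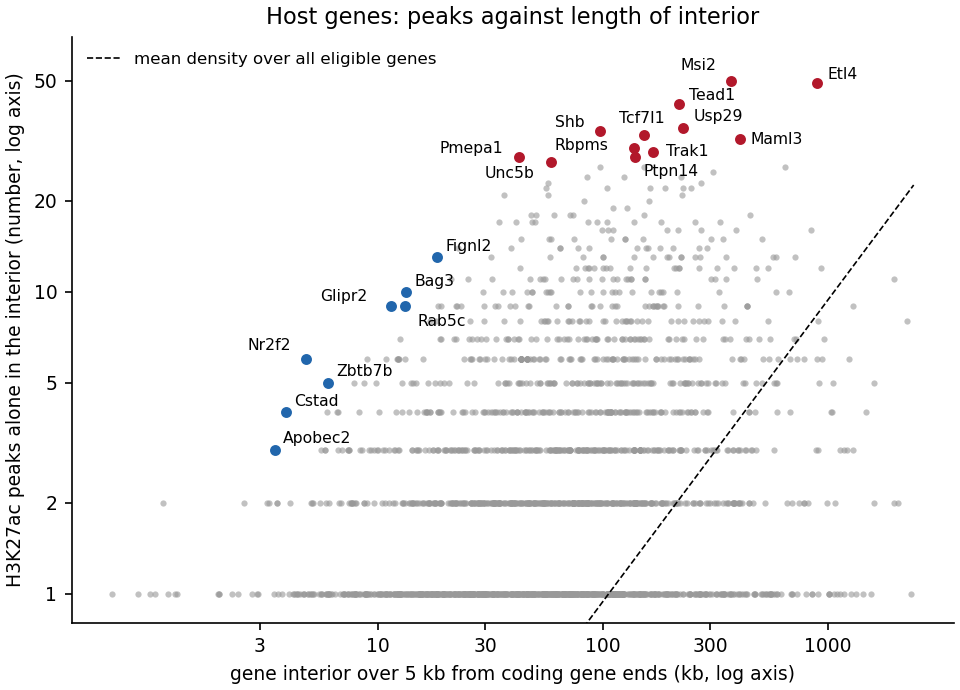
Number of H3K27ac peaks alone in the interior of each of 2192 host genes (y axis, log scale) against the length of that interior in kb (x axis, log scale), with the dashed line at 9.41 per Mb. Red points are the 12 genes with the most peaks, among them Msi2 with 50 and Etl4 with 49, and blue points the 8 with the most per 100 kb among genes with at least 3 peaks, where Nr2f2 has 6 in 4.80 kb.

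Per length, short genes led among those with at least 3 peaks. Nr2f2, a nuclear receptor gene, held 6 peaks in 4.80 kb of interior, 125.0 per 100 kb, with folds up to 11.2. Cstad held 4, Apobec2, of the cytidine deaminase family, 3 in 3.50 kb, and Zbtb7b, a zinc finger factor gene, 5 in 6.03 kb. Glipr2 had 9, Bag3, a co-chaperone gene, 10, Fignl2 13 and Rab5c, for a GTPase of early endosomes, 9, at 78.8, 74.6, 70.7 and 68.1 per 100 kb. These genes have an interior of 3.50 to 18.4 kb, so a single peak changes the density by much.

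Neighbouring peaks formed runs. The median distance from one summit to the next such summit was 1.05 kb, and 71.1% had another within 2 kb, against 58.6% of peaks alone near gene ends and 66.5% of those alone between genes. With steps of at most 2 kb there were 911 runs of 3 or more, which held 3716 of the peaks, and 13 runs of 10 or more. The longest was in Pmepa1, 18 peaks over 15.4 kb with folds of 3.56 to 9.46. Runs of 13 lay in Actn4, an alpha-actinin gene, and in Rffl, over 14.6 and 12.6 kb, and a run of 12 lay in Ahdc1. The last pair were named after their values were seen. In Tcf7l1 the peaks fell into separate groups along the gene, and the highest H3K27ac peaks of the gene were not among them, since they overlapped Trim33 or lay near an end.

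**Figure D4:**
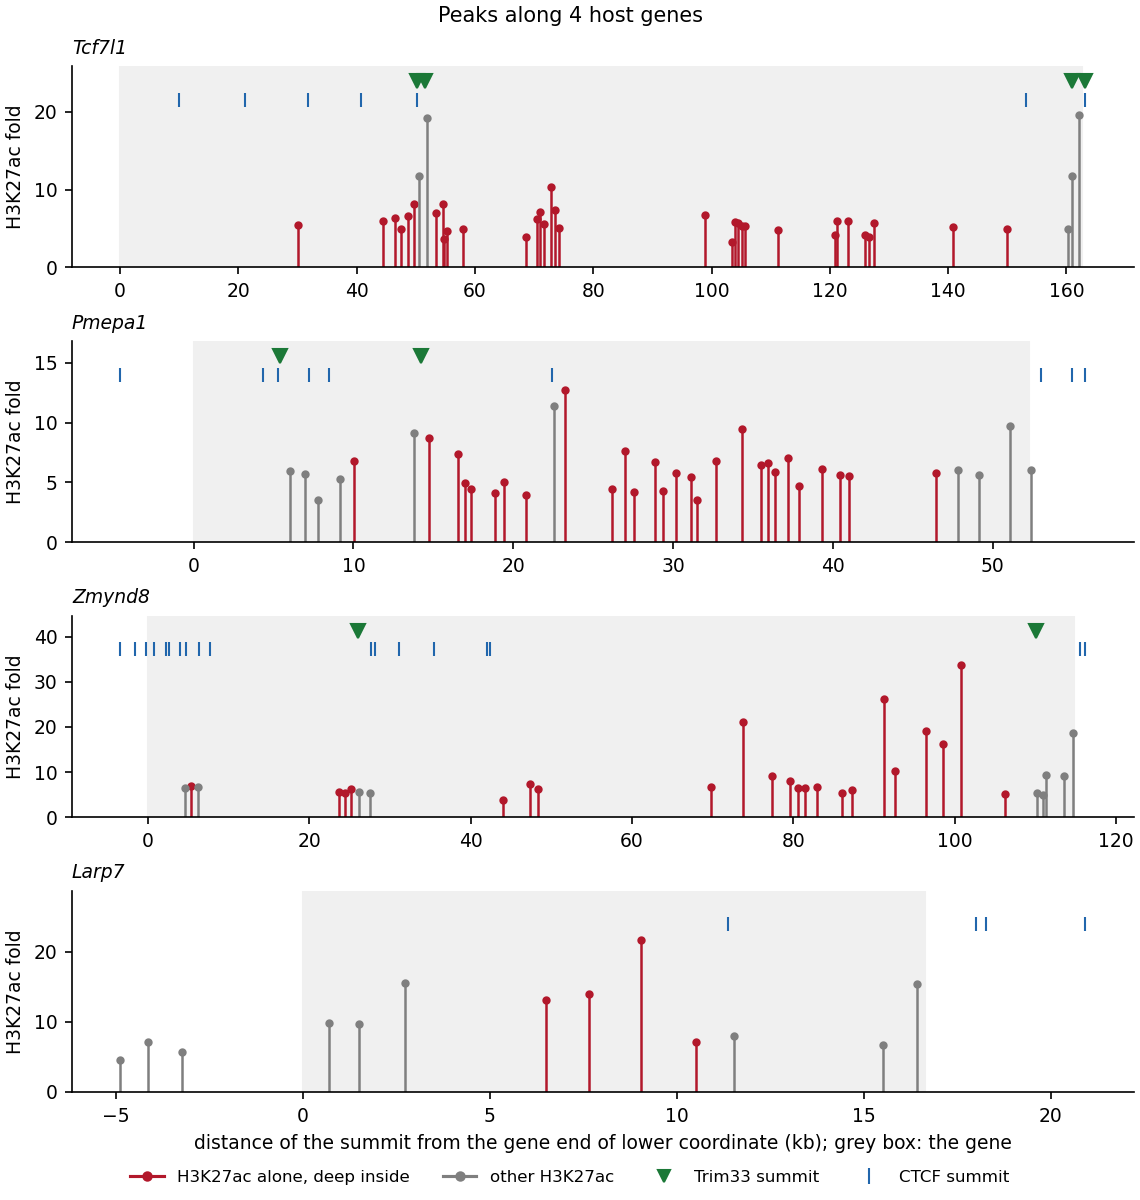
H3K27ac fold at each summit (y axis) against distance in kb from the gene end of lower coordinate (x axis) in 4 host genes, with peaks alone deep inside the gene in red, other H3K27ac peaks in grey, and Trim33 and CTCF summits marked above. Pmepa1 shows its run of 18, Zmynd8 its highest peak of 33.8, and Larp7 the peak of 21.8 over the microRNA cluster.

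Among developmental and signalling gene lists, endoderm genes most often held a peak, 14 of the 18 with an interior (77.8%, interval 52.4 to 93.6), beside 15.9% of all such genes. The lists were not matched for gene length, and the shares are descriptions. Gata4, a transcription factor of endoderm and heart, had 8 peaks with folds up to 11.2. Lrp2, which encodes the endocytic receptor megalin, had 7 reaching 16.5, and Hnf4a, a nuclear receptor of endoderm, 6 reaching 10.7. Dab2, an endocytic adaptor gene, also had 6. Foxa3, Apob, Afp and Ttr had none.

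Of the pluripotency genes 10 of 17 held a peak (58.8%), at 69.5 per Mb of interior against 9.41 over all genes. Trim71, a ubiquitin ligase and RNA-binding protein of stem cells, had 15 with a median fold of 11.2 and a maximum of 17.4. Lin28b, an inhibitor of let-7 microRNA processing, had 8 up to 9.47, Dnmt3a, a DNA methyltransferase gene, 6 up to 20.0, and Jarid2, a cofactor of Polycomb complex PRC2, 6 up to 11.6. Klf5, Tbx3, Zfp42, Prdm14, Dppa4, Dnmt3b and Rif1 had none. Pou5f1, Nanog and Sox2 have no interior by this definition and so could hold none, and each had acetylation at an end (a summit within 1 kb).

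Among the signalling lists, the Wnt list had the highest share of genes with a peak, 22 of 32 (68.8%), and the Hippo list the highest density. The density of the Wnt list was 42.5 peaks per Mb, or 32.1 without Tcf7l1. Its other leading genes were Prickle1 and Ror2, of planar polarity and Wnt5a signalling, with 14 and 13, and Tcf7l2, a DNA-binding partner of beta-catenin, with 10. Hippo genes numbered 11 of 25 (44.0%) at 65.1 per Mb, or 49.1 without Tead1. After Tead1 and Ptpn14 came Vgll4, a Tead cofactor, with 16 and Fat1, a giant protocadherin, with 15, while the kinase genes Lats1, Lats2, Stk3 and Stk4 had none. Hedgehog and retinoic acid genes numbered 9 of 21 (42.9%), led by Rara, a retinoic acid receptor gene, with 14, Sufu, an inhibitor of Gli factors, with 13, and Gli2 with 12. BMP genes numbered 8 of 18 (44.4%), led by Zfp423, a zinc finger cofactor of Smads, with 14, Smad6, an inhibitory Smad, with 10, and the co-receptor gene Rgma with 9.

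FGF and receptor tyrosine kinase genes numbered 10 of 22 (45.5%), with 17 peaks in Etv5, an ETS factor downstream of FGF, and 9 in the receptor gene Fgfr1. Notch genes numbered 6 of 15, with 32 peaks in Maml3 and 11 in the ligand gene Jag1. Without Etv5 the FGF list had 9.55 per Mb, against 16.6 with it, and without Maml3 the Notch list had 24.3, against 40.2. Nodal and TGF-beta genes numbered 6 of 24, with 28 in Pmepa1, 10 in Ski, a corepressor of Smads, and 9 each in the inhibitory Smad7 and the co-receptor Tgfbr3. Trim33 itself held none. The density of the Nodal and TGF-beta list was 31.0 per Mb with Pmepa1 and 16.9 without it.

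**Figure D5:**
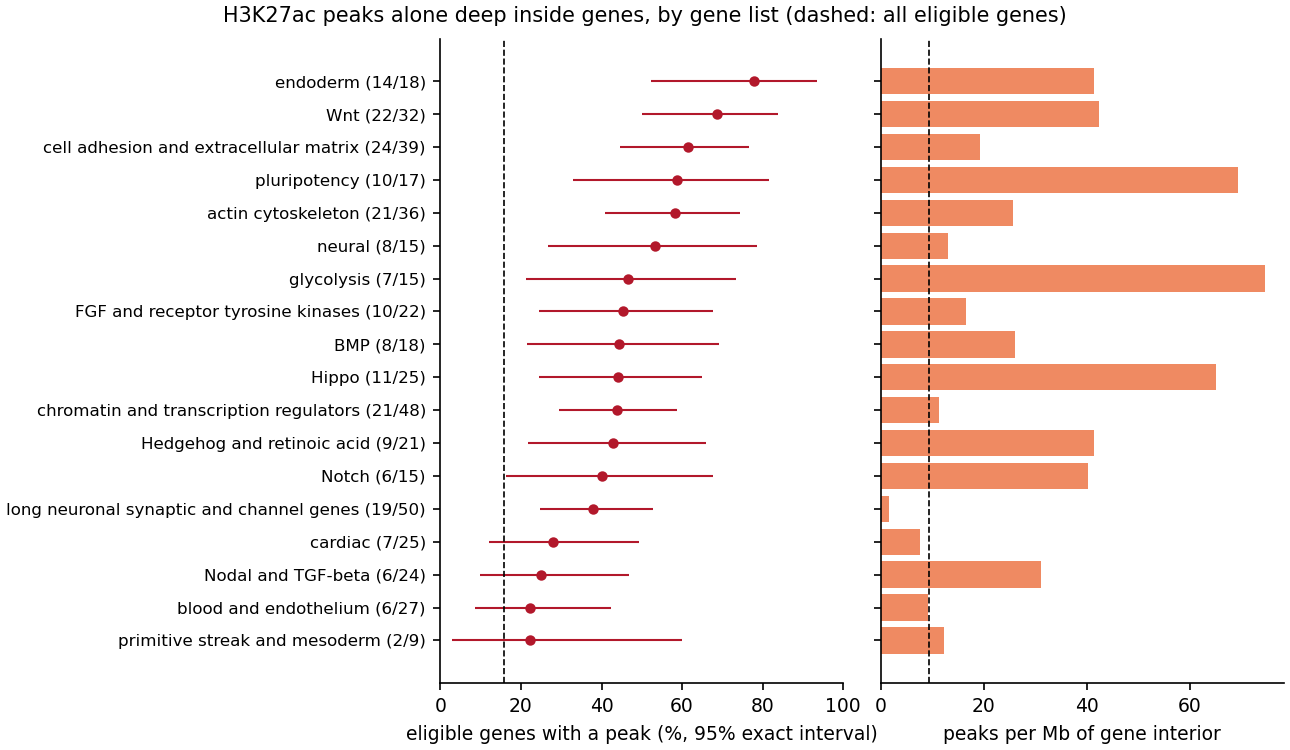
Left, share of genes with an interior that hold at least 1 H3K27ac peak alone (x axis, %, bars 95% exact intervals) for 18 gene lists, with genes counted in brackets. Right, peaks per Mb of interior (x axis); dashed lines mark all genes with an interior (15.9% and 9.41 per Mb), and long neuronal genes stand at 38.0% but 1.44 per Mb.

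Genes of the cell's architecture were frequent hosts. Of the actin cytoskeleton list 21 of 36 (58.3%) held a peak, with 27 in Actn4, 23 in Shroom3, of apical constriction, and 20 in Actn1. Of the adhesion and matrix list 24 of 39 (61.5%) held one, led by the basement membrane genes Nid2 and Col18a1 with 17 each, Tjp1, a tight junction gene, with 13, and Cdh1, the E-cadherin gene, with 10. Of the glycolysis list 7 of 15 (46.7%) held one, at 74.6 per Mb, with 14 in the glucose transporter gene Slc2a3 and 10 in the hexokinase gene Hk2. Without Slc2a3 that density was 51.9. Of the chromatin regulators 21 of 48 (43.8%) held one, led by Gse1 with 15, beside 15.9% of all genes with an interior. Their density was 11.2 per Mb, or 9.48 without Gse1, near the 9.41 over all genes.

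Cardiac genes numbered 7 of 25 (28.0%) at 7.54 per Mb, or 5.02 without Gata4, and after Gata4 the leading one was Smyd1, a muscle methyltransferase gene, with 6. Of the other cardiac genes Mef2d held 3 and Ttn 2, while Tnnt2, Myh6, Ryr2 and Tbx5 held none. Blood and endothelial genes numbered 6 of 27 (22.2%) at 9.13 per Mb, or 4.66 without Zfpm1, a Gata1 cofactor gene that held 10, and Ldb1 held 4. Runx1 and Eng held 2 each, while Kdr, Tal1, Gata1 and Pecam1 held none. Primitive streak and mesoderm genes numbered 2 of 9 (22.2%, interval 2.81 to 60.0), Zeb2 with 6 and Pax3 with 1, at 12.2 per Mb, or 2.22 without Zeb2. An end was acetylated, with a summit no more than 1 kb away, in 4 of 30 cardiac, 4 of 30 blood and endothelial, 9 of 30 streak and mesoderm, 15 of 36 neural, 18 of 27 endoderm and 15 of 26 pluripotency genes. The share over all genes with an interior was 45.0%, and these list counts also take in shorter genes. Within the streak and mesoderm list, Eomes, Tbx6, Evx1, Cdx2 and Sp5 were among those with an acetylated end, and T and Mesp1 among those without. The cardiac genes with one were Gata4, Gata6, Mef2d and Myh7, and those of blood and endothelium Zfpm1, Mecom, Meis1 and Plvap. The genes in these last sentences were named after their values were seen.

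Neural genes numbered 8 of 15 (53.3%) at 13.1 per Mb, led by Gli2 with 12, Zfhx3, a zinc finger homeobox gene, with 10, and Meis2 with 7. Without Gli2 the density was 9.85 per Mb, near the 9.41 over all genes. The 15 neural genes were long, with a median length of 206.3 kb. The very long neuronal synaptic and channel genes differed by the measure used. A peak was held by 19 of 50 (38.0%), but the density was 1.44 per Mb of interior, the lowest of the 18 lists. Dlgap1, a synaptic scaffold gene, had 16, Macrod2 11, Tenm3, a teneurin gene, 9 and Cntnap2 8. An H3K27ac summit lay at an end of 3 of the 50.

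Host genes more often had acetylated ends. An H3K27ac summit lay within 1 kb of an outer end in 53.7% of the 2192 host genes (51.6 to 55.8) and 59.8% of those with 5 or more peaks, against 43.4% of the 11617 genes with an interior and no peak, beside 45.0% of all genes with an interior. In each of the 5 groups by length of interior the share was higher in hosts, from 60.6% against 44.4% in the shortest to 47.0% against 33.7% in the longest. A Trim33 summit lay at an end of 10.4% of the hosts and 13.7% of those with 5 or more peaks, against 813 of the 11617 genes without a peak, beside 7.54% of all. For CTCF the shares were 38.0% and 45.4%, against 27.2%.

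Along the gene the peaks thinned with distance from the start. In the hosts with a known strand, 25.8% of 6226 peaks lay in the first of 5 equal parts of the gene (its 5 kb margins left off), and the next parts held 22.2%, 19.5%, 17.5% and 15.1%. The 642 peaks with Trim33 or CTCF had 26.6% in the first part and no even decline after it, with 17.1%, 16.5%, 21.7% and 18.1%. The median distance from the gene start was 37.4 kb, against 35.0 kb.

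Chromosomes differed in density, counted here with each peak once and not per host gene. Chromosomes 7 and 11 had 14.3 and 14.2 peaks per Mb of interior, the other autosomes 5.82 to 13.0, and the X chromosome 1.64, with 63 peaks. CTCF peaks in the same interiors were also sparse on the X chromosome, at 5.92 per Mb against 15.0 to 29.6 on the autosomes. The number of X chromosomes in the cells and the input coverage were not tested.

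Some peaks lay far from any site of the other proteins. The farthest was a peak of fold 7.81 in Zfhx4, a zinc finger homeobox gene, 779 kb from the nearest CTCF summit and farther from Trim33. The next 4 were all in Zeb2, a repressor of E-cadherin, with folds of 6.90 to 8.95 and at 628 to 636 kb from CTCF. Of these 4, 3 lay side by side, with summits from base 45109354 to base 45110474 and a RefSeq start 0.197 to 0.923 kb away. Zeb2 held 6 such peaks and neither a CTCF nor a Trim33 summit. In Ddc, next to the imprinted gene Grb10, 6 of the 18 peaks had a RefSeq start within 1 kb. The 18 formed 2 groups, 10 at 56.0 to 75.6 kb and 8 at 19.0 to 31.2 kb from the gene start. The highest, of fold 32.3, was the farthest from the start, with a CTCF summit 2.12 kb and a Trim33 summit 2.17 kb away, and the next highest had a fold of 22.2.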

How the data were processed

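Peak lists for Trim33, CTCF and H3K27ac were used as the authors deposited them, on mm10. The authors' deposited summary names MACS 2.1.0, with the input library as control, and gives the counts of reads and tags and the percent of reads in peaks per library. Each deposited peak has a fold (a ratio over background), a −log10 p and q, a score and a summit. Aligner settings are not given in the sources used here. Genes, starts and microRNAs came from RefSeq GRCm38.p6. Everything else was computed in Python (version 3.11.15) with pandas 2.3.3, scipy 1.17.1 and numpy 2.4.6, figures were drawn with matplotlib 3.10.9, and the class rule was tested on simulated peaks. Overlap meant at least 1 bp. Shares have exact Clopper-Pearson intervals at 95%. With 1 library per antibody and a set chosen by its peaks, no test was made.

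The regions and gene lists were chosen with earlier results of these data known. Genes were named by rule: hosts of the 12 highest and 5 widest peaks, the 12 with the most, the 8 densest with at least 3, the 5 farthest from other summits, and up to 4 per list; genes listed as holding none, and others marked so, were added afterwards. All list symbols matched. One gene that the rule names is not reported here. Planned windows of sequence at the summits needed a genome and were not used here.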

Additional observations from a re-analysis of the deposited data

How the results depend on the processing

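The number of peaks was 3674 when H3K27ac peaks within 1 kb were joined, against 7891, and stayed within 1.5 times under the other alternatives. The share of genes with a peak, 15.9%, was 13.6% at a −log10 q of at least 10, 16.8% beyond 10 kb from gene ends, 14.8% with no Trim33 or CTCF peak within 1 kb, 14.7% with the ends of all genes avoided, and 14.4% both with peaks joined and without peaks within 1 kb of a RefSeq start, a setting added after seeing the data. The median fold, 6.01, was 6.68 at that q, 6.21 with peaks joined and 5.94 without the peaks near starts. The share with CTCF within 10 kb, 41.2%, was 45.4% beyond 2 kb from gene ends, 36.3% beyond 10 kb, 36.9% with no other peak within 1 kb and 36.3% with peaks joined. The shares of the 18 lists stayed within their intervals in all 9 settings, but the lists are small and the intervals wide, so this shows little. At the stricter q the streak and mesoderm share went from 22.2% (interval 2.81 to 60.0) to 11.1%. With peaks joined the glycolysis share went from 46.7% (21.3 to 73.4) to 33.3%. Joining moved the count in all of the 12 genes with the most peaks, and the stricter q in 5 (Msi2, Shb, Tcf7l1, Maml3 and Ptpn14). The cause was not tested. The H3K27ac caller's threshold (lowest −log10 p 7.03) and 1 library limit what was listed. No paired analysis was possible because each antibody has 1 library.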
